A study of Mus musculus with 12 samples.

Results

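The genes examined here encode the machinery that makes, stores, clears and degrades gamma-aminobutyric acid (GABA), and the GABA-B receptor that senses it. They are Gad1, Gad2, Slc32a1, Slc6a11, Abat, Aldh5a1, Gabbr1 and Gabbr2, chosen by gene name, and all 8 were found once each among the 57132 features of the count table. RNA sequencing libraries came from the striatum of 6 TAAR5-KO mice, which lack trace amine-associated receptor 5, and 6 wild-type (WT) C57Bl/6 littermates, all 10 months old. The methods give 3 males and 3 females for each genotype, but the libraries NK1 to NK6 (labelled TAAR5-KO) and NK7 to NK12 (labelled WT) are tied to no animal and no sex. The tissue was what remained of a forebrain slice rostral to Bregma once the cortex had been cut away. It was asked whether transcripts of the GABA system differed between libraries of the 2 labels.

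GABA is the main inhibitory transmitter of the forebrain and the transmitter of the spiny projection neurons that make up most of the striatum. It is made from glutamate by glutamate decarboxylase, loaded into vesicles by the vesicular GABA transporter, taken back up by plasma membrane transporters on neurons and astrocytes, and broken down in mitochondria through the GABA shunt. The GABA-B receptor is a G protein-coupled receptor that works as a pair of unlike subunits, GABBR1, which binds GABA, and GABBR2, which couples to the G protein.

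Total counts ran from 11269915 to 34824450 per library, of which 64.3% to 88.1% fell on ribosomal RNA features, so that 1819907 to 6399188 counts per library were left for other genes. Levels are CPM, counts relative to the library total, after scaling by TMM (trimmed mean of M-values) in edgeR, with factors between 0.375 and 2.47. Scaling by library size alone shifted the median of all log2 fold changes to −0.49 and gave 0 higher and 7 lower calls in place of 133 higher and 96 lower, so directions here are relative to TMM. Taar5 itself had 1 to 6 counts in libraries labelled TAAR5-KO and 0 to 2 in libraries labelled WT, where a count of 0 allows up to 3. Taar5 was thus not lower under the TAAR5-KO label, but counts this low cannot settle the genotype of a library. Every direction below therefore follows the labels only. Expression of a gene in bulk tissue cannot tell fewer cells of a type from less RNA per cell.

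All 8 genes were well counted, with 63 to 4018 counts in any library, and all passed the filter of at least 0.5 CPM in at least 3 libraries. On a per-length scale (RPKM, CPM per kilobase of exon), Gad2 and Gabbr1 had the highest levels, with 11.2 ± 1.93 RPKM and 10.6 ± 0.728 RPKM (SD, n = 12 libraries). Their order was not fixed, since Gad2 exceeded Gabbr1 in 6 of the 12 libraries. Gad1 followed at 6.76 ± 0.784 RPKM, below Gabbr1 in 12 of 12 libraries and above Abat (6.00 ± 0.801 RPKM) in 10. Gabbr2 had 5.23 ± 1.11 RPKM and Slc6a11 4.89 ± 1.64 RPKM, and each was the higher of the pair in 6 libraries. Slc32a1 had 3.07 ± 0.619 RPKM and Aldh5a1 was lowest at 2.54 ± 0.312 RPKM, below Slc32a1 in 11 of 12 libraries. Even Aldh5a1 lay above 86.4% of the 12604 protein-coding genes tested, and Gad2 above 98.4%.

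None of the 8 genes was called by the generalized linear model likelihood ratio test of edgeR at a Benjamini–Hochberg adjusted p under 0.1, against 1.65% of the 13902 features tested (229 features). By unadjusted p, 1 of the 8 was under 0.05, against 11.9% of all features. DESeq2 called 0 of the 8, against 177 of the 13902 features. The quasi-likelihood test of edgeR also called 0 of the 8, against 0.453% of features. No gene of the 8 had groups without overlap, against 1.01% of all features. Log2 fold changes were positive for 3 genes and negative for 5, with a median of −0.048 against −0.0061 over all features tested.

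**Figure D1:**
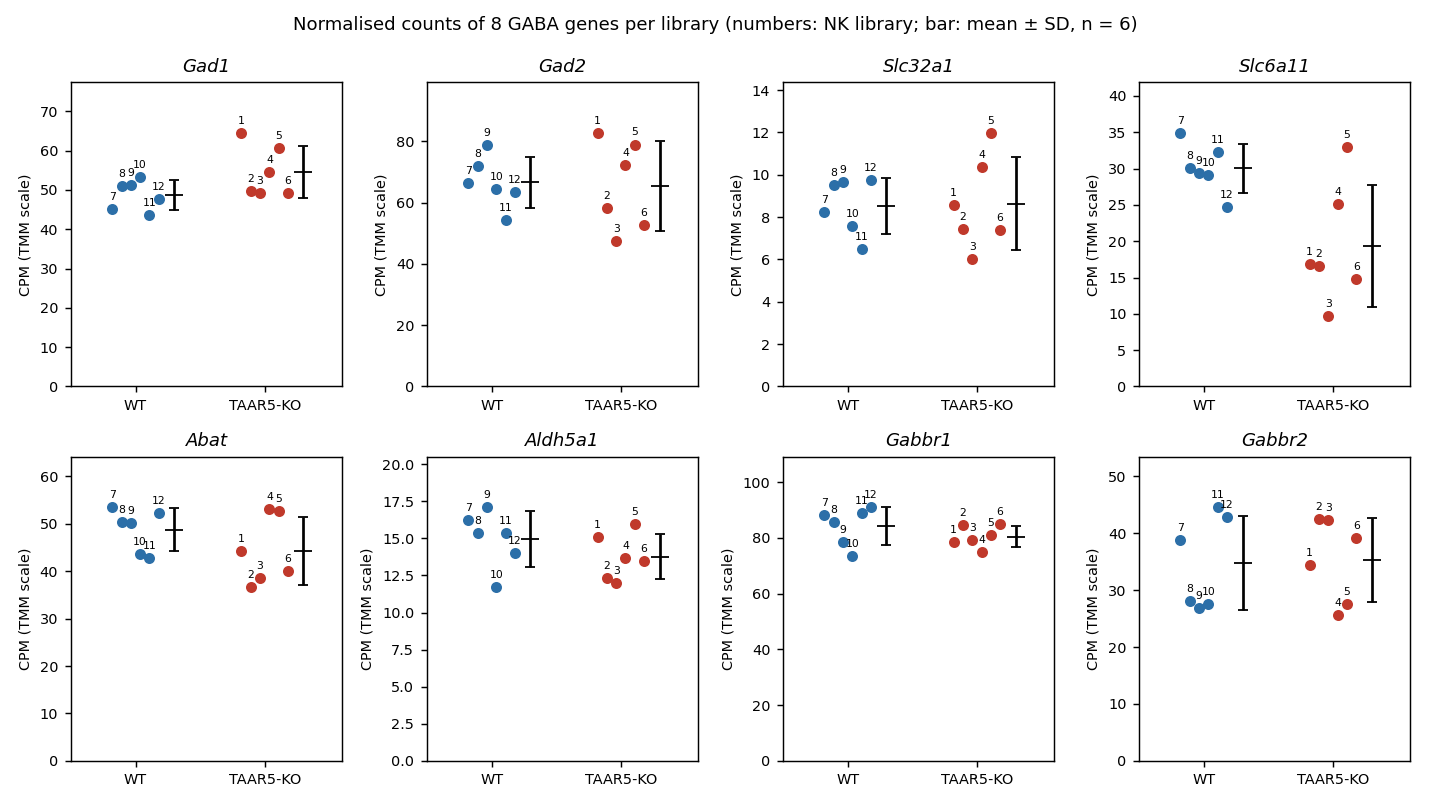
Normalised counts (CPM on the TMM scale, linear axes from 0) of the 8 GABA genes, with 1 point per library carrying its NK number, and the mean ± SD of 6 libraries as a bar beside each group. The points of both labels overlap in every panel, and in the Slc6a11 panel the libraries labelled TAAR5-KO fall into 4 at 9.74 to 16.9 CPM and 2 at 25.1 and 33.0 CPM.

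Slc6a11, the GABA transporter GAT-3 that is expressed mainly by astrocytes, showed the largest difference among the 8. Its gene (ENSMUSG00000030307.9) lies on chromosome 6 of GRCm39 from 114108202 to 114226913 on the plus strand, with 14 exon blocks of 5050 bases in all. It had a lowest value of 9.74 CPM (NK3), a median of 16.7 CPM and a highest value of 33.0 CPM (NK5) in libraries labelled TAAR5-KO. In libraries labelled WT it ran from 24.7 CPM (NK12) through a median of 29.7 CPM to 34.9 CPM (NK7). The groups overlapped, because NK1, NK2, NK3 and NK6 lay below all 6 libraries labelled WT while NK4 and NK5 lay among them. The group means were 19.3 ± 8.34 CPM and 30.1 ± 3.41 CPM (SD, n = 6 each). On the log2 scale the fold change was −0.63 (SE 0.20, 95% interval −1.03 to −0.23). The unadjusted p was 0.00197 and the adjusted p of the likelihood ratio test was 0.109, just outside the threshold, with 0.213 by the quasi-likelihood test. A fold change of this size or more in either direction was found for 3.91% of all features. The call depended on single libraries, since Slc6a11 was past the threshold without NK4 (−0.72, adjusted p = 0.0470) and without NK5 (−0.85, adjusted p = 6.77e-04).

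Slc6a11 was set beside transcripts of the choroid plexus, the secretory epithelium of the ventricles. The summed level of 5 choroid plexus markers (Ttr, Folr1, Kl, Clic6 and Otx2) fell into 2 separate ranges, 2.60 to 8.23 CPM in 5 libraries and 112 to 468 CPM in 7. NK1, NK2, NK3, NK6 and NK12 were in the low range, so that 4 of its 5 libraries carry the TAAR5-KO label. Slc6a11 was at 9.74 to 24.7 CPM in those 5 and at 25.1 to 34.9 CPM in the other 7. Across the 12 libraries Pearson's r was 0.78 (permutation p = 0.00321, adjusted p = 0.0835) and Spearman's rho was 0.52 (permutation p = 0.0846, adjusted p = 0.367). Neither passed 0.05 after adjustment over 104 relations of genes with marker lists and library measures. The r was 0.75 without the 2 libraries farthest from the median, 0.81 within libraries labelled TAAR5-KO and 0.68 within those labelled WT. Within the low range, 4 libraries labelled TAAR5-KO had 9.74 to 16.9 CPM and the only library labelled WT had 24.7 CPM. Within the high range, the libraries labelled TAAR5-KO had 25.1 and 33.0 CPM and the 5 labelled WT had 29.1 to 34.9 CPM. Of those, NK5 lay among the libraries labelled WT, and NK4, which had the most choroid plexus transcripts, lay below them. With the choroid plexus level as a covariate, which was added once values were known, the log2 fold change of Slc6a11 was −0.42 (adjusted p = 0.140). With 4 markers of cortical pyramidal neurons as the covariate instead, it was −0.75 (adjusted p = 6.14e-04).

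Astrocyte markers were also set beside Slc6a11. All 10 on the list were lower in libraries labelled TAAR5-KO, but only Gja1 passed the test (log2 fold change −0.41, adjusted p = 0.0566). Of all 13902 features tested, 7110 were lower and 0.691% were called lower. The summed level of the astrocyte markers ran from 1004 to 1210 CPM in libraries labelled TAAR5-KO and from 1111 to 1307 CPM in libraries labelled WT. Most of that sum was Slc1a2 alone (means of 941 and 970 CPM, log2 fold change −0.044). The sum therefore says little of the other astrocyte markers. Across the 12 libraries the relation of the summed level to Slc6a11 was weak (Pearson's r = −0.038, permutation p = 0.909, Spearman's rho = 0.042, permutation p = 0.905). The r was 0.29 without the 2 libraries farthest from the median of the astrocyte level, −0.75 within libraries labelled TAAR5-KO and 0.37 within those labelled WT. Mature oligodendrocyte markers had lower means in 6 of 6 cases, none called, and their relation to Slc6a11 did not pass adjustment (r = 0.64, permutation p = 0.0259, adjusted p = 0.159, rho = 0.66, permutation p = 0.0225, adjusted p = 0.192). That r was 0.45 without the 2 farthest libraries, 0.34 within TAAR5-KO labels and 0.77 within WT labels. Microglia markers had lower means in 6 of 6 cases, 2 of them called, against the same 0.691% of all features called lower. The summed level of the microglia markers was 24.6 to 35.05 CPM in libraries labelled TAAR5-KO and 34.4 to 43.5 CPM in libraries labelled WT. Their level was related to that of Slc6a11 by Pearson's r (0.82, permutation p = 0.00120, adjusted p = 0.0416) but not by Spearman's rho (0.60, permutation p = 0.0429, adjusted p = 0.263). That r was 0.61 without the 2 farthest libraries, 0.72 within TAAR5-KO labels and 0.41 within WT labels. Total counts per library ran inversely to Slc6a11 without passing adjustment (r = −0.69, permutation p = 0.0124, adjusted p = 0.136, rho = −0.70, permutation p = 0.01405, adjusted p = 0.162). That r was −0.67 without the 2 farthest libraries, −0.65 within TAAR5-KO labels and −0.53 within WT labels. The part of total counts, or of choroid plexus, astrocyte, oligodendrocyte or microglia content, in the Slc6a11 difference was not tested beyond these values.

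The sequence just upstream of the Slc6a11 start is shown because this gene had the largest difference, and that of Slc32a1 because its level followed 2 other members across libraries. Both are from RefSeq promoter windows (build GRCm38.p6) matched to GRCm39, cut to the bases outside annotated exons and printed 5′ to 3′. Capitals mark matches on either strand to the TATA box letters TATAAA, the CAAT box letters CCAAT or the GC box letters GGGCGG, and no matches overlapped. The Slc6a11 stretch is chr6:114107952-114108199 on the plus strand.
Slc6a11: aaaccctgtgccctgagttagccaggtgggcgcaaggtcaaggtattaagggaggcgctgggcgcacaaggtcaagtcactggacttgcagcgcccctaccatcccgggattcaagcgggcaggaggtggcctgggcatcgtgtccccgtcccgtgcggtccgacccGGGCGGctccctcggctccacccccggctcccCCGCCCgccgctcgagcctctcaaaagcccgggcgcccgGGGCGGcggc
The Slc32a1 stretch is chr2:158452428-158452604 on the plus strand.
Slc32a1: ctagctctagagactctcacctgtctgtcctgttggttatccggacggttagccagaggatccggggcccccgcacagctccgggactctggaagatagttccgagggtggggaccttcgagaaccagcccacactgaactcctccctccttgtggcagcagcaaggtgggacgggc

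The 250 bases upstream of the Slc6a11 start held 3 matches to GGGCGG, the core of the GC box, and were 71.2% G and C against a median of 52.4% over 32851 RefSeq windows. A GGGCGG match was present in 32.7% of those windows, a CCAAT match in 33.8% and a TATAAA match in 12.4%. The corresponding 250 bases of Slc32a1 held none of the 3 motifs. GGGCGG was not particular to Slc6a11, with 2 matches in Gabbr2 (80.8% G and C), 2 in Gabbr1 (66.0%) and 1 in Gad1 (58.0%). The whole windows of Gabbr2 and Gad1 lay within annotated exons, however. The longest stretch of the Gabbr1 window outside exons, 95 bases, held no GGGCGG match. All 3 matches of Slc6a11 lay outside annotated exons. Gad2 (64.0%) and Aldh5a1 (57.2%) held no GGGCGG match. A match is a string of letters, not a bound site. RefSeq windows were found for 7 of the 8 genes, all but Abat.

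Neither of the enzymes that make GABA passed the test. Gad1 (ENSMUSG00000070880.11, chromosome 2, 70383416 to 70432358) encodes the larger isoform of glutamate decarboxylase, which supplies most of the basal GABA of the cell body. It had 49.1 CPM (NK6), a median of 52.1 CPM and 64.5 CPM (NK1) at most in libraries labelled TAAR5-KO, and 43.5 CPM (NK11), 49.3 CPM and 53.3 CPM (NK10) in libraries labelled WT. NK1, NK4 and NK5 lay above all libraries labelled WT, and 3 libraries labelled WT lay below all labelled TAAR5-KO. The fitted log2 fold change came to 0.17 (SE 0.098, 95% interval −0.022 to 0.36, adjusted p = 0.497), and it was −0.28 when only library size was scaled, against a median of −0.49 over all features there. Gad1 belongs to a co-expression module that the study selected on these libraries for its association with the knockout, so its direction is not independent of that choice.

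Gad2 (ENSMUSG00000026787.4, chromosome 2, 22512217 to 22583886) encodes the smaller isoform, which is concentrated at nerve terminals. Its range was 47.4 CPM (NK3), 65.2 CPM and 82.7 CPM (NK1) in libraries labelled TAAR5-KO against 54.2 CPM (NK11), 65.4 CPM and 78.9 CPM (NK9) in libraries labelled WT. Libraries labelled TAAR5-KO were thus spread on both sides of those labelled WT, with 2 below and 2 above all of them. The fitted log2 fold change came to −0.025 (SE 0.14, 95% interval −0.30 to 0.25, adjusted p = 0.969).

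Slc32a1 (ENSMUSG00000037771.12, chromosome 2, 158452687 to 158457668), the vesicular GABA transporter, was the least counted of the 8. It had 6.00 CPM (NK3), 8.003 CPM and 12.0 CPM (NK5) in libraries labelled TAAR5-KO and 6.47 CPM (NK11), 8.88 CPM and 9.73 CPM (NK12) in libraries labelled WT, with NK4 and NK5 above and NK3 below all labelled WT. The fitted log2 fold change came to 0.020 (SE 0.15, 95% interval −0.28 to 0.32, adjusted p = 0.977) and −0.38 with library size alone. Of its exonic bases, 24.9% are shared with Gm14205 on the opposite strand. That feature had at most 1 count in any library.

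Both enzymes of the GABA shunt had lower means in libraries labelled TAAR5-KO without passing the test. Abat (ENSMUSG00000057880.13, chromosome 16, 8331293 to 8439432) encodes GABA transaminase, which turns GABA into succinic semialdehyde. It ran from 36.7 CPM (NK2) through 42.1 CPM to 53.2 CPM (NK4) in libraries labelled TAAR5-KO and from 42.7 CPM (NK11) through 50.3 CPM to 53.4 CPM (NK7) in libraries labelled WT. NK2, NK3 and NK6 lay below all of the latter. The fitted log2 fold change came to −0.14 (SE 0.11, 95% interval −0.36 to 0.078, adjusted p = 0.666). Aldh5a1 (ENSMUSG00000035936.7, chromosome 13, 25091562 to 25121644) encodes the dehydrogenase that oxidises succinic semialdehyde to succinate. It had 12.0 CPM (NK3), 13.6 CPM and 16.0 CPM (NK5) against 11.7 CPM (NK10), 15.4 CPM and 17.1 CPM (NK9), so that the libraries labelled WT spanned all those labelled TAAR5-KO. On the log2 scale the fold change was −0.12 (SE 0.10, 95% interval −0.32 to 0.077, adjusted p = 0.690). Its exons overlap 2 features on the opposite strand, with at most 19 counts in any library.

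Neither GABA-B subunit passed the test. Gabbr1 (ENSMUSG00000024462.18, chromosome 17, 37356858 to 37385959) varied least of the 8, from 74.8 CPM (NK4) through 80.1 CPM to 84.9 CPM (NK6) in libraries labelled TAAR5-KO. In libraries labelled WT it had 73.4 CPM (NK10), 87.0 CPM and 90.9 CPM (NK12), and 4 of them exceeded all labelled TAAR5-KO. The fitted log2 fold change came to −0.071 (SE 0.087, 95% interval −0.24 to 0.10, adjusted p = 0.814). Gabbr2 (ENSMUSG00000039809.11, chromosome 4, 46662305 to 46991873) ran from 25.6 CPM (NK4) through 36.7 CPM to 42.4 CPM (NK2) against 26.8 CPM (NK9), 33.4 CPM and 44.5 CPM (NK11). The ranges of both labels largely overlapped. Its fitted log2 fold change was 0.012 (SE 0.16, 95% interval −0.30 to 0.32, adjusted p = 0.987), and −0.65 when only library size was scaled.

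Gabbr2 separated the libraries in another way than by label. NK4, NK5, NK8, NK9 and NK10 had 25.6 to 28.02 CPM, and the others 34.3 to 44.5 CPM. These levels went with the summed level of 4 markers of cortical pyramidal neurons (Slc17a7, Neurod6, Tbr1 and Neurod2), which ran from 23.6 CPM in NK4 to 92.5 CPM in NK12. Across the 12 libraries Pearson's r between the log2 levels was 0.95 (permutation p = 1e-05, the smallest that these permutations give, adjusted p = 0.00104 over 104 relations of the 8 genes with 11 marker lists, ribosomal RNA share and total counts). Spearman's rho was 0.94 (permutation p = 4.00e-05, adjusted p = 0.00416). The r was 0.94 without the 2 libraries farthest from the median, 0.99 within libraries labelled TAAR5-KO and 0.93 within those labelled WT. The marker level itself ran from 23.6 to 83.9 CPM in libraries labelled TAAR5-KO and from 28.04 to 92.5 CPM in those labelled WT, and none of the 4 markers was called. How much cortical tissue contributes to the Gabbr2 counts was not tested.

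Gad2 was likewise related to a list of 4 markers of septum and pallidum (Zic1, Trpc4, Nkx2-1 and Lhx8), regions next to the striatum that hold many GABA neurons. Pearson's r was 0.81 (permutation p = 8.00e-05, adjusted p = 0.00416) and Spearman's rho was 0.92 (permutation p = 1.00e-04, adjusted p = 0.00520). The r was 0.79 without the 2 libraries farthest from the median, 0.88 within libraries labelled TAAR5-KO and 0.56 within those labelled WT. NK3 stood apart at 6.09 CPM of these markers and had the lowest Gad2, while the other 11 libraries had 15.5 to 25.4 CPM. Most of that sum was Zic1 alone (means of 14.6 CPM in libraries labelled TAAR5-KO and 14.9 CPM in those labelled WT). Trpc4 had means of 3.11 and 2.88 CPM, Nkx2-1 0.488 and 0.510 CPM, and Lhx8 0.690 and 0.7 CPM. The relation therefore says little of the markers other than Zic1. No further relation of the 104 passed an adjusted p of 0.05 by both coefficients. Gad2 ran inversely to the cortical pyramidal neuron markers without passing adjustment (r = −0.75, permutation p = 0.00624, adjusted p = 0.110, rho = −0.77, permutation p = 0.00516, adjusted p = 0.109). That r was −0.74 without the 2 farthest libraries, −0.79 within TAAR5-KO labels and −0.74 within WT labels. Markers of the tissue itself were present in all libraries, with 10 spiny neuron markers at 402 to 519 CPM in libraries labelled TAAR5-KO and 241 to 444 CPM in libraries labelled WT. All 10 had higher means in libraries labelled TAAR5-KO and none was called. Of all 13902 features tested, 6792 were higher. Penk, Pde10a, Adcy5 and Bcl11b are in co-expression modules that the study selected on these libraries for association with the knockout. Their direction is thus not independent of that choice.

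**Figure D2:**
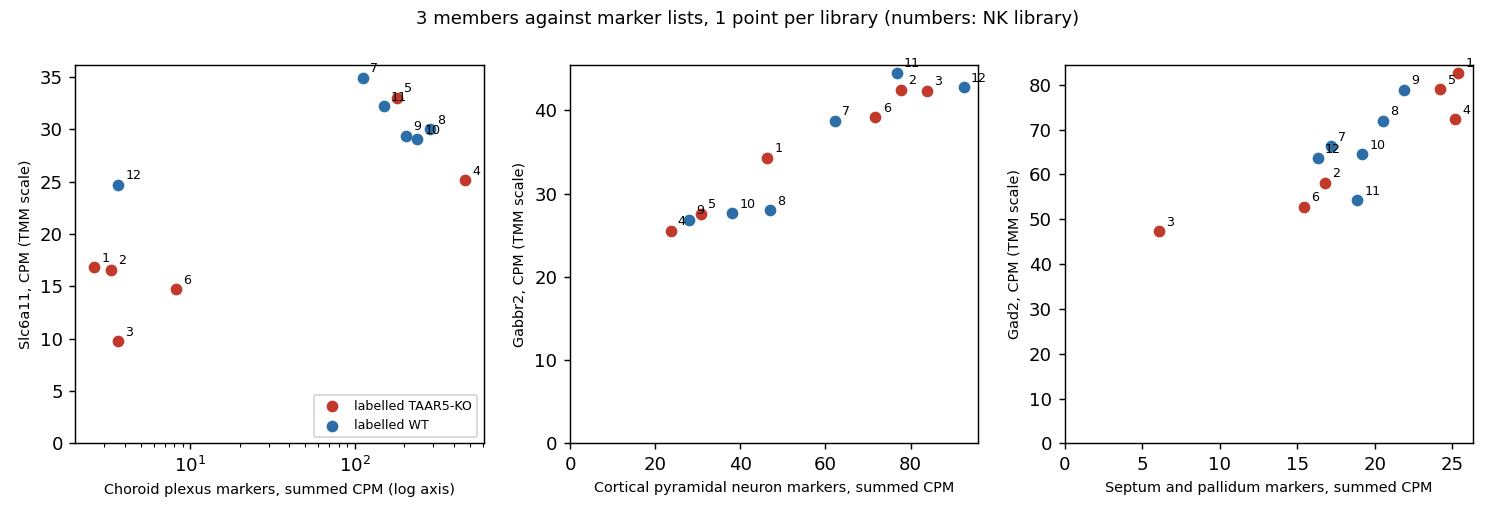
CPM (TMM scale) of Slc6a11, Gabbr2 and Gad2 on the vertical axes against the summed CPM of choroid plexus markers (log axis), cortical pyramidal neuron markers and septum and pallidum markers on the horizontal axes, with 1 numbered point per library. Slc6a11 is below 25 CPM in the 5 libraries under 10 CPM of choroid plexus markers, and Gabbr2 rises with the cortical markers in libraries of both labels.

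Among themselves, 18 of the 28 pairs of the 8 genes had a positive Pearson's r over the 12 libraries. Adjusted over the 28 pairs, 2 pairs passed 0.05 by both coefficients. Gad2 and Slc32a1 had r = 0.83 (permutation p = 0.00109, adjusted p = 0.0234) and rho = 0.79 (permutation p = 0.00345, adjusted p = 0.0322), with r = 0.73 when the 2 farthest libraries were left out, 0.85 within libraries labelled TAAR5-KO and 0.80 within those labelled WT. Slc32a1 and Abat had r = 0.81 (permutation p = 0.00167, adjusted p = 0.0234) and rho = 0.79 (permutation p = 0.00325, adjusted p = 0.0322), with r = 0.79 without the 2 farthest, 0.91 within TAAR5-KO labels and 0.80 within WT labels. By Spearman's rho alone 8 pairs passed. Gabbr2 had a negative r with 6 of the 7 other genes, the exception being Gabbr1 (r = 0.68, permutation p = 0.0182, adjusted p = 0.0638, rho = 0.71, permutation p = 0.0123, adjusted p = 0.0430, r = 0.56 without the 2 farthest, 0.66 within TAAR5-KO labels and 0.81 within WT labels). Gabbr2 against Gad2 had r = −0.73 (permutation p = 0.0104, adjusted p = 0.0638) and rho = −0.73 (permutation p = 0.00972, adjusted p = 0.0389). There r was −0.68 without the 2 farthest libraries, −0.76 within TAAR5-KO labels and −0.77 within WT labels.

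The features whose log2 CPM most resembled each gene were searched among 2577 others with a mean of at least 10 CPM, by Pearson's r over 12 libraries, as a description. For Gabbr2 these were Tppp (r = 0.97) and Ncald (0.96), for Slc6a11 Sparc (0.95) and Timp2 (0.95), and for Gad2 Cacna2d2 (0.94) and Plxdc2 (0.87). For Gabbr1 they were Dpysl2 (0.93) and Arhgap35 (0.92), and for Aldh5a1 Tmbim6 (0.90) and Scarb2 (0.86). Slc32a1 was most like Acly (0.88) and Uqcrb (0.87), Abat most like Gaa (0.86) and Bex3 (0.86), and Gad1 most like Rragd (0.85) and Rbm39 (0.84).

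Ratios of 2 genes within a library do not depend on the scaling between libraries, and 3 are given here, compared between labels by exact permutation (two-sided), whose smallest possible p is 0.00216. Adjusted values cover 4 ratios, of which 1 is not reported here. The ratio of Abat to Gad1, breakdown against synthesis, was computed on reads per kilobase. It was lowest at 0.676 (NK1), with a median of 0.787 and a highest value of 0.962 (NK4), in libraries labelled TAAR5-KO. In libraries labelled WT it ran from 0.805 (NK10) through 0.970 to 1.16 (NK7), so that NK1, NK2, NK3 and NK6 lay below all labelled WT, NK6 only by a narrow margin. The difference of the mean log2 ratio was −0.31 (SE 0.10, exact p = 0.0130, adjusted over the 4 ratios 0.0519). In the 5 libraries with little choroid plexus the ratio was 0.676 to 0.805 in those labelled TAAR5-KO and 1.08 in NK12, and in the other 7 it was 0.859 and 0.962 against 0.805 to 1.16. The difference kept an exact p under 0.05, without adjustment, in each of the 12 comparisons that left out 1 library. Gad1 is in the module that the study selected on these libraries for its association with the knockout. The directions of this ratio and of Gad1 to Gad2 are thus not independent of that choice.

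The ratio of Gad1 to Gad2 was 0.580 to 0.799 with a median of 0.629 in libraries labelled TAAR5-KO and 0.499 to 0.635 with a median of 0.560 in libraries labelled WT. NK2, NK3 and NK6 exceeded all labelled WT. The difference was 0.21 on the log2 scale (SE 0.093, exact p = 0.0498, adjusted 0.0664), and the exact p stayed under 0.05 in 5 of the 12 comparisons that left out 1 library. The ratio of Gabbr1 to Gabbr2 had medians of 1.92 and 2.13, a difference of −0.09 (SE 0.15, exact p = 0.558). After adjustment none of the 3 passed 0.05.

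**Figure D3:**
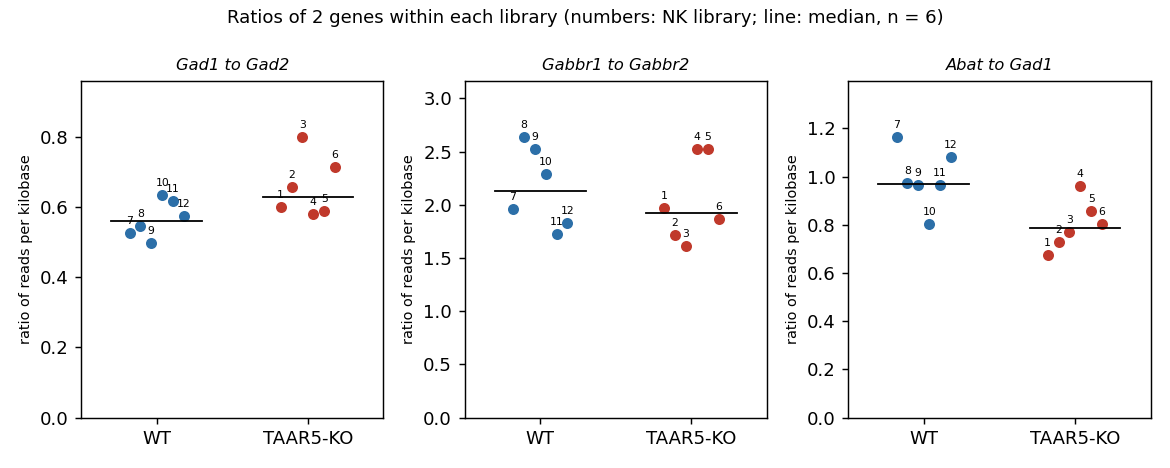
Ratios of reads per kilobase of 2 genes within each library (linear axes from 0), with 1 numbered point per library and a line at the median of 6. In the panel of Abat to Gad1, 4 of the 6 libraries labelled TAAR5-KO lie below all labelled WT.

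A list of 40 other genes of GABA metabolism and GABA-B signalling was examined with the same fit, of which 37 passed the filter. Of these 23 were lower and 14 higher in libraries labelled TAAR5-KO, with a median log2 fold change of −0.043 against −0.0061 over all features. Past the threshold were 0 higher and 1 lower, where 0.957% and 0.691% of all features were. By unadjusted p, 6 were under 0.05, where 11.9% of all features were. The gene called was Aldh1a1, an aldehyde dehydrogenase that can make GABA from putrescine in dopamine neurons and is better known for making retinoic acid.

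Aldh1a1 fell from a median of 8.55 CPM in libraries labelled WT (7.40 in NK12 to 10.5 in NK10) to 5.27 CPM in those labelled TAAR5-KO (3.67 in NK2 to 7.52 in NK5). Only NK5 reached into the range of the other label. The group means were 5.58 ± 1.51 CPM and 8.73 ± 1.15 CPM (SD, n = 6 each), and the fitted fold change was −0.61 on the log2 scale (SE 0.15, likelihood ratio adjusted p = 0.0144). It was past the threshold in all 12 fits that left out 1 library, but missed it with the quasi-likelihood test (adjusted p = 0.113) and without NK10, NK11 and NK12, which carried pituitary transcripts (−0.56, adjusted p = 0.332). In the 5 libraries with little choroid plexus, Aldh1a1 had 3.67 to 7.40 CPM, and in the other 7 it had 7.13 to 10.5 CPM. With the choroid plexus level as a covariate its log2 fold change was −0.44 (adjusted p = 0.0307).

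Glutamate supply was represented by 7 tested genes, none called. Glul, the glutamine synthetase of astrocytes, had the highest per-length level, with 85.6 ± 4.24 RPKM and 91.5 ± 3.71 RPKM in the labels (SD, n = 6 each) and a log2 fold change of −0.10 (adjusted p = 0.735). Other GABA synthesis and breakdown was led by Maob, the monoamine oxidase of astrocytes (−0.074, adjusted p = 0.900), and Adhfe1, which oxidises gamma-hydroxybutyrate (−0.41, adjusted p = 0.345). The vitamin B6 kinase Pdxk, which supplies the cofactor of both GAD and GABA transaminase, had a log2 fold change of 0.0085 (adjusted p = 0.986). Sv2a, a synaptic vesicle protein, had −0.032 (adjusted p = 0.939). The transporters Slc6a12 and Slc6a13 did not pass the filter, with at most 9 and 24 counts in a library.

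Of the partners of the GABA-B receptor, the 3 auxiliary KCTD subunits had fold changes between 0.071 and 0.15 on the log2 scale, none called, and Kctd12 had the highest level of them (2.83 ± 0.234 RPKM against 2.69 ± 0.150 RPKM, SD, n = 6 each). App, whose secreted form binds GABBR1, had a log2 fold change of 0.028 (adjusted p = 0.942). Among 7 effector genes, the G protein beta subunit Gnb1 had the highest level and a log2 fold change of −0.13 (adjusted p = 0.661), and the potassium channel genes Kcnj3, Kcnj6 and Kcnj9 had 0.19, 0.0076 and 0.084 (adjusted p from 0.778 to 0.993). Of 6 transcription factors of GABA neurons, Dlx6 had the highest level and a log2 fold change of 0.38 (adjusted p = 0.425).

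**Figure D4:**
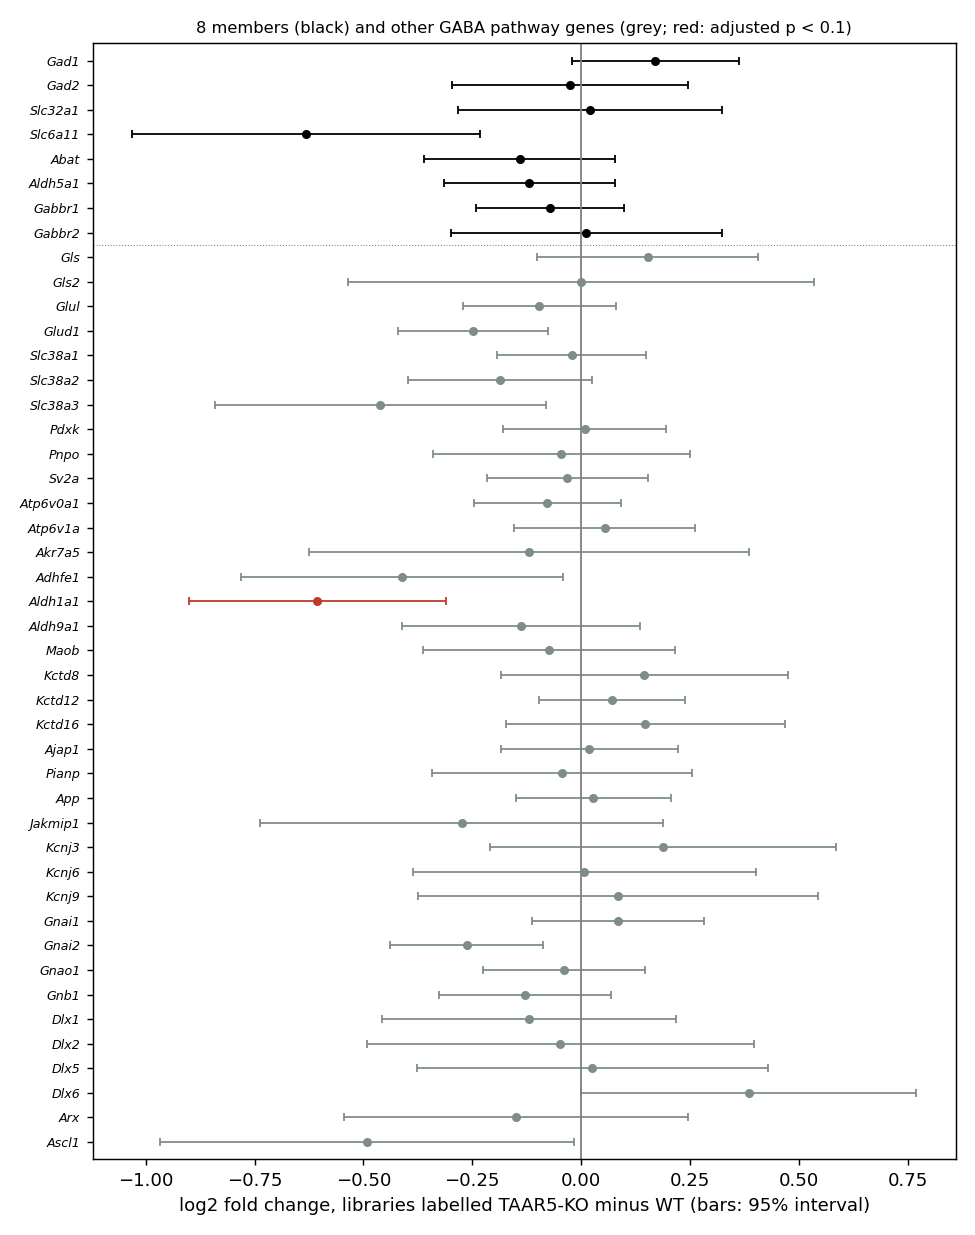
Log2 fold changes of libraries labelled TAAR5-KO minus libraries labelled WT (horizontal axis) with 95% intervals, for the 8 members in black above the dotted line and the 37 other tested pathway genes in grey below it. Aldh1a1, in red, is the only gene past an adjusted p of 0.1, and the interval of Slc6a11, from −1.03 to −0.23, is the only one of the 8 that leaves out 0.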

How the data were processed

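Directional libraries were made from rRNA-depleted striatal RNA. Per the submitters' processing notes, the authors used cutadapt 4.1, STAR 2.7.11b and featureCounts 2.0.6 on the GRCm39 build. They deposited raw counts per gene, without normalization, and the exon length of each gene. Strand and multi-mapping settings are not given in the sources used here, so antisense overlaps are uncertain. Counts in 12 other columns stayed out. A column was a replicate of its labelled genotype.

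A CPM of 0.5 or more was required in 3 or more libraries. Tests were made in edgeR 4.0.16 (R 4.3.3) with glmFit and glmLRT, without covariates, at an adjusted p under 0.1. This test, the filter and the threshold follow the paper's methods, which name CPM but no scaling factors between libraries, and the TMM factors were chosen here. Standard errors came from the same fit. Single values were compared by exact permutation, and correlations by 100000 permutations. The quasi-likelihood test, DESeq2 1.42.0, other scalings and filters, length and GC trend removal (loess, span 0.5), a ribosomal RNA covariate and leaving out each library were alternatives. Counting error follows from the counts, 63 to 4018 per gene and library, and the spread between libraries adds to it. The coefficient of variation between libraries fitted by edgeR ran from 10.1% (Gabbr1) to 23.9% (Slc6a11) among the 8 genes. Libraries within a label differed beyond sampling noise (chi-square per degree of freedom 4.12 at least). On simulated data with these means and dispersions (13902 features) the likelihood ratio test found 44.3% of 79 genes given a log2 change of 0.5 and 94.8% of 58 given 1, and 19.0% of its 189 calls were false, more than the threshold allows.

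Named are the 8 genes, every called gene of the pathway list, the gene of highest level in each role of that list, and the 2 features most like each member. Genes named besides these were chosen after their values were seen. The members and lists were chosen with earlier results of these data known. A marker gene, a pathway gene and the ratio that used it are not reported here.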

Additional observations from a re-analysis of the deposited data

How the results depend on the processing

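The 8 genes gave 0 calls in 13 of 14 alternatives and 1 call (Slc6a11) with cortical markers as a covariate. Without single libraries they gave 0 to 1 calls, the 1 being Slc6a11 without NK4 or NK5. The fold change of Slc6a11 was negative in all alternatives (−0.95 to −0.42) and without any single library (−0.85 to −0.49). The −0.95 came with library size alone, where the median of all features was itself −0.49. Calls over all features moved from 229 to 63 with the quasi-likelihood test, 7 with library size alone, 93 without a filter, 108 at an adjusted p under 0.05, 83 with GC trends removed, 98 with the ribosomal RNA share as a covariate, 681 with cortical markers as a covariate and 15 without the 3 libraries over 10 CPM of pituitary markers, and ran from 85 (without NK11) to 415 (without NK4). The other pathway genes gave 0 calls with the quasi-likelihood test, with library size alone and without those 3 libraries. They gave 3 calls with DESeq2 (Aldh1a1, Glud1 and Gnai2), which called 177 of all 13902 features. With cortical markers as a covariate they gave 4 calls, and without single libraries 1 to 4 (4 without NK4). Covariates of cell markers and the removal of 3 libraries were chosen after the data were seen. The causes were not tested, other than that fewer libraries entered some fits.

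With library size alone Gad1 was at −0.28, Slc32a1 at −0.38 and Gabbr2 at −0.65, but there the median of all features was itself −0.49, so these signs say nothing of the genes' own change. Fold changes near 0 changed sign in other settings. Slc32a1 was −8.11e-04 without a filter (median of all features −0.11 there), −0.054 with cortical markers as a covariate and −0.070 without the 3 libraries. Gabbr2 was −0.020 without a filter and −0.22 with choroid plexus markers as a covariate, where Gad2 turned to 0.053. Gabbr1 was 7.82e-04 with GC trends removed. Without single libraries Gad2 ran from −0.10 to 0.062, Slc32a1 from −0.10 to 0.11 and Gabbr2 from −0.044 to 0.093. With 0.5 counts added the 3 ratios kept their side of an exact p of 0.05. Leaving out single libraries gave 0.15 to 0.24 for Gad1 to Gad2 (exact permutation p up to 0.106), −0.16 to −0.03 for Gabbr1 to Gabbr2 and −0.37 to −0.26 for Abat to Gad1. No paired analysis was possible because the columns of the count table carry no animal number.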
